A study of Mus musculus and Rattus norvegicus with 24 samples.

Results

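Zinc finger protein genes with a numbered Zfp symbol were followed across single cells that the labels give as cardiomyocytes. The set held every row of the deposited count table whose symbol begins with Zfp and a digit, which gave 215 of 9595 listed genes, or 2.24%. Cells fell into 3 groups of 8, 24 in all. Transplanted cells had been differentiated from a mouse stem cell line of the genotype mESCIsl1-Cre; Rosa-RFP; aMHC-GFP, put into a neonatal rat heart and taken out after 30 days in vivo. Adult cells were wild-type ventricular cardiomyocytes of adult rats. Cultured cells had the genotype of the transplanted cells and spent 30 days in vitro. Transplanted and cultured cells therefore share the stem cell line and its reporters, a Cre recombinase under Isl1, a red fluorescent protein at Rosa and a green one under the alpha myosin heavy chain promoter, and adult cells carry none of them. The labels name no animal, culture or clone, so a group is 1 sample here: no p-value is given, and differences between cells are shown as spread only.

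The classical zinc finger is a short loop of a protein in which a pair of cysteines and a pair of histidines hold a zinc ion (the C2H2 type). Fingers stand in rows, and each can read a few bases of DNA, or bind RNA or another protein. Many mouse members carry a KRAB box, which recruits Trim28 and the histone methyltransferase Setdb1 and silences the bound DNA, above all copies of retroelements and imprinted loci. Members of another type, with CCCH fingers, bind AU-rich mRNA and lead it to decay.

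The letters of the finger are shown for the member with the most counts in each group, since the results turn on whether such genes were seen at all. The sequences are coding bases of GENCODE M21 transcripts on GRCm38, the build also called mm10, read 5′ to 3′ on the strand of the gene. Capitals mark the codons of the cysteines and histidines. Zfp637 led in transplanted cells (fingers 1 and 2 of 6, chr6:117845186-117845248 and chr6:117845270-117845332, plus strand, coding exon). Zfp830 led in adult cells (its only finger, chr11:82764528-82764596, plus strand, coding exon). Zfp266 led in cultured cells (fingers 1 and 5 of 9, chr9:20499785-20499847 and chr9:20499449-20499511, minus strand, coding exon).
Zfp637 finger 1: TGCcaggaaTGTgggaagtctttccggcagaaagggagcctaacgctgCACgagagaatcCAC
Zfp637 finger 2: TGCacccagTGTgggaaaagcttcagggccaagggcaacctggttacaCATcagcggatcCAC
Zfp830 finger 1: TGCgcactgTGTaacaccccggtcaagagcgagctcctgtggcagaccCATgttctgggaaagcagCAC
Zfp266 finger 1: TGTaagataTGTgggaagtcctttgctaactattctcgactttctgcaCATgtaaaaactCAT
Zfp266 finger 5: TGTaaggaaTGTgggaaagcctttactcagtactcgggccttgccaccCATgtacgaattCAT
The fingers of Zfp637 and Zfp266 have the same spacing of capitals and are 63 bases long. The finger of Zfp830 is 69 bases long, with more bases between its histidine codons.

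All 215 symbols matched the annotation, and 214 had a coding sequence. A C2H2 finger was found by pattern in 207, and 122 had 10 or more fingers, up to 33 in Zfp462 and Zfp619. A pattern for the KRAB box was found in 107 and not in the other 107. It misses Zfp445, which is known as a KRAB protein, and further misses were not searched for. The set without the pattern can therefore hold other KRAB proteins. Chromosome 7 held 48 members and chromosome 17 held 26, of which 23 had the KRAB pattern. The median exon length was 4976 bp, against 4566 bp for all listed genes with a length. Members with close copies can share reads: 32 had more than 10% of their 50-base windows in another gene, and 29 of those had the KRAB pattern.

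The libraries differed in ways that touch these genes. Totals were 88796 to 344224 counts in transplanted cells, 108546 to 223744 in adult cells and 16099 to 60789 in cultured cells. Rn45s, the ribosomal RNA precursor, took 0.547 to 1.78% of counts in transplanted cells, 0.748 to 1.95% in adult cells and 1.29 to 13.2% in cultured cells. Cultured cells B, C, D and E stood apart: Rpph1, the RNA of RNase P, took 4.96%, 2.51%, 5.48% and 5.30% of their counts, against 0.0202 to 0.0574% in cultured cells A, F, G and H. The count-weighted median exon length was 1950 to 2304 bp in transplanted cells, 2044 to 2353 bp in adult cells, 6544 to 6983 bp in cultured cells B to E and 3730 to 4933 bp in the other cultured cells. Counts of Ttn were left out when these length medians were computed, in every cell. The 12 cardiomyocyte markers took 18.2% of transplanted, 16.9% of adult and 5.41% of cultured counts. By group sums, 7 of the 12 were at least 2-fold higher and 5 lower in transplanted than in cultured cells. In adult cells 7 were higher and 4 lower than in cultured cells. Myl7 was at 0 in transplanted and adult cells. The 12 markers took 4.75%, 17.5%, 11.7% and 8.68% of counts in cultured cells B, C, D and E. In cultured cells A, F, G and H they took 2.81%, 0.742%, 0.0883% and 0.00837%, so the label was not borne out in every cultured cell. Fibroblast markers (8 listed of 11) took 0% of transplanted, 7.86e-05% of adult and 0.0791% of cultured counts (cells 0 to 0.209%, highest in cultured cell H). In cultured cells Col1a2, Pdgfra, Fbln2 and Fn1 had counts, and Col3a1, Dcn, Lum and Postn had none. Smooth muscle and pericyte markers (6 listed of 7) took 0.0204%, 0.0383% and 0.0155% of transplanted, adult and cultured counts, with 0.0159% in adult cells without adult cell G. Of the 6, counts were found for 3, 2 and 5, and Tagln, Cnn1, Pdgfrb and Cspg4 were at 0 in adult cells. These shares are not read as a sign of either cell type. Endothelial markers (5 listed of 10) and leukocyte markers (2 listed of 10) had at most 1 gene with counts in any group. Pluripotent cell markers (5 listed of 8) took 0.0163% of transplanted counts, 0.185% of adult counts and 0.0262% of cultured counts. Of the 5 listed genes, 1, 2 and 4 had counts in transplanted, adult and cultured cells. Nanog, Klf4 and Tdgf1 were at 0 in transplanted and adult cells. These genes had counts in cultured cells, where Esrrb alone was at 0. The adult share was 0.0613% without adult cell A. The shares of this list are not read as a sign of pluripotent cells in any group. The part of these differences between libraries in the results was not tested. Shares, detection and 2-fold counts of the cultured group are given with and without cells B to E. The setting without B to E keeps cultured cells A, F, G and H, which had the lowest cardiomyocyte marker shares of the group. It is therefore not a purer set of cardiomyocytes.

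Zfp genes took a small share of counts in transplanted and adult cells and a larger one in cultured cells. Transplanted cells had 1154 Zfp counts of 1302871, a share of 0.0886% (exact Clopper-Pearson 95% interval 0.0835 to 0.0938%). Adult cells had 2667 of 1271528, or 0.210% (0.202 to 0.218%). Cultured cells had 4225 of 206178, or 2.05% (1.99 to 2.11%). The transplanted share was thus 23.1-fold lower than the cultured share (conditional binomial 95% interval 21.7 to 24.7), and the adult share was 9.77-fold lower than the cultured one (9.31 to 10.3). The transplanted share was 2.37-fold lower than the adult one (2.21 to 2.54). These intervals hold the error of counting alone, as reads amplified by PCR without molecular identifiers do not stand for separate molecules. Without cultured cells B to E the cultured share was 1.11%, and the log2 ratios of shares were -3.64 for transplanted over cultured and -2.40 for adult over cultured cells, in place of -4.53 and -3.29.

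Cell by cell, the cultured shares lay above all others. In transplanted cells A to H the Zfp share was 0.00352%, 0.136%, 0.0608%, 0.109%, 0.000511%, 0%, 0.182% and 0.166%. The 0 in transplanted cell F, of 151356 counts, allows a share of up to 0.00198%. In adult cells A to H it was 0.437%, 0.223%, 0.216%, 0.0892%, 0.130%, 0.00461%, 0.425% and 0.0289%. The ranges of transplanted and adult cells overlapped; adult cells A, B, C and G lay above every transplanted cell, and transplanted cells A, E and F lay below every adult cell. In cultured cells A to H the share was 1.55%, 3.27%, 1.99%, 2.18%, 2.26%, 1.08%, 1.21% and 0.657%. The lowest cultured cell, H, exceeded the highest adult cell, A, and the 4 cultured cells with over 1% Rpph1 had the highest Zfp shares.

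**Figure D1:**
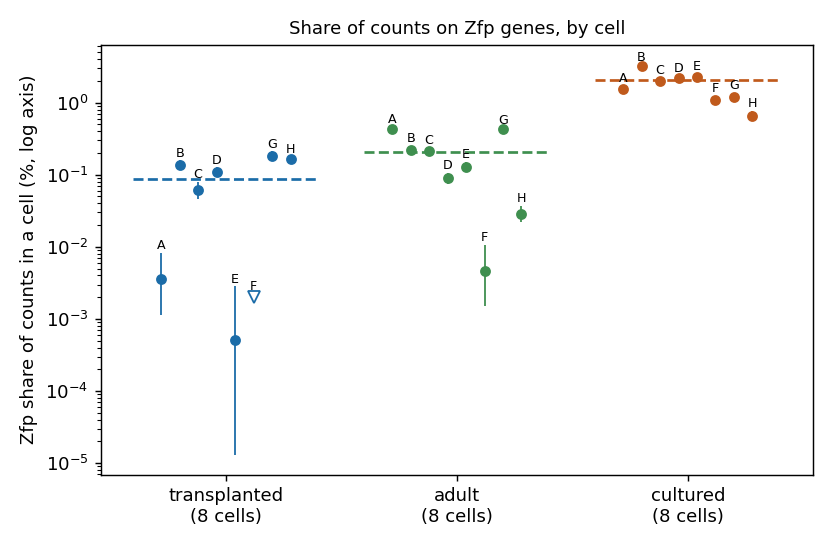
Share of each cell's counts on the 215 Zfp genes, in percent on a log axis, for transplanted, adult and cultured cells A to H; bars are exact Clopper-Pearson 95% intervals, dashed lines the shares of the group sums and the open triangle the limit for a cell with no Zfp count. Every cultured cell (0.657 to 3.27%) lies above every transplanted (0 to 0.182%) and adult cell (0.00461 to 0.437%).

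Detection followed the same order. Over all 8 cells, 23 members had a count in transplanted cells (10.7%), 40 in adult cells (18.6%) and 186 in cultured cells (86.5%). Of all listed genes, 32.6% had a count in transplanted, 38.1% in adult and 76.2% in cultured cells. The members' percent thus lay below that of all genes in transplanted and adult cells and above it in cultured cells. Without the cells with much Rpph1, the order in cultured cells turned. Cultured cells A, F, G and H together had counts for 75 members, or 34.9%, against 45.1% of all genes. Leaving out cultured cell B alone gave 147 members, or 68.4%, near the 67.8% of all genes. Leaving out cells also lowers the cultured total, to 84834 counts without B to E. Detection was not matched for depth in these settings, and the part of depth in the turn was not tested. At an equal total of 206178 counts per group, the means over thinnings were 15.3 members in transplanted, 30.3 in adult and 186 in cultured cells. These are 7.12%, 14.1% and 86.5% of members, against 26.8%, 31.1% and 76.2% of all genes, with cultured cells B to E included.

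Per cell, the deposited counts showed 0 to 13 members in transplanted cells (median 2.5), 2 to 15 in adult cells (median 6.5) and 8 to 88 in cultured cells (median 29.5), although the cultured cells had the fewest counts. With each cell thinned to 16099 counts, the total of the shallowest cell, no cell was left out. The medians were then 1.06 members in transplanted cells (0 to 7.59), 4.11 in adult cells (0.630 to 8.88) and 28.9 in cultured cells (7.64 to 72.3). Cultured cell H, at 7.64, lay within the adult range; the other cultured cells lay above it. Total gene detection at that depth also differed, with medians of 606 genes in transplanted, 688 in adult and 1459 in cultured cells. As a percent of the genes detected in the same cell, members made up a median of 0.223% in transplanted cells (0 to 0.725%), 0.580% in adult cells (0.109 to 1.01%) and 2.13% in cultured cells (1.04 to 3.37%). Cultured cells B, C, D and E again ranked highest, and their removal gave a cultured median of 1.53%.

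**Figure D2:**
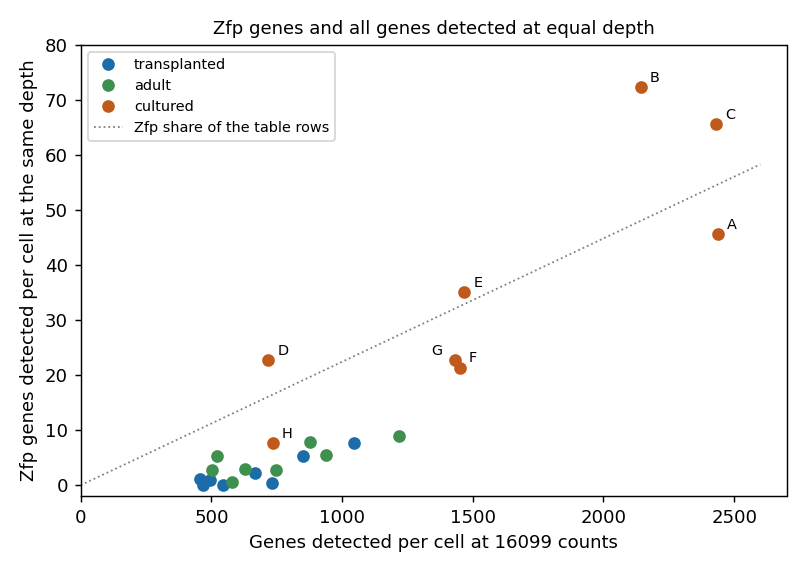
Zfp genes detected per cell against all genes detected in the same cell, each cell thinned to 16099 counts (means of 100 thinnings), coloured by group with cultured cells lettered; the dotted line marks 2.24%, the Zfp share of the table rows. Cultured cells B to E lie above the line, and all transplanted and adult cells lie below it.

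Most detections came from single cells. Of the 23 members with counts in transplanted cells 19 were seen in 1 cell only (82.6%, against 57.7% of all genes seen in that group). The same held for 29 of 40 in adult cells (72.5%, against 53.2%) and 114 of 186 in cultured cells (61.3%, against 53.1%). A single gene could dominate a cell. Zfp637 in transplanted cell H gave 572 counts, 49.6% of all transplanted Zfp counts, and was the only member seen in that cell. Zfp830 in adult cell A gave 540 counts, 20.2% of the adult Zfp counts. In cultured cells Zfp266 came first with 244 counts, 5.78% of the group's Zfp counts.

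By pattern of groups, 145 members had counts in cultured cells only (67.4%, against 43.4% of all genes). A further 27 were seen in adult and cultured cells (12.6%, against 10.2% of all genes) and 10 in transplanted and cultured cells (4.65%, against 6.83%). Counts in transplanted cells only were found for 9 (4.19%, against 4.49%) and in adult cells only for 9 (4.19%, against 6.60%). No member was shared by transplanted and adult cells alone, a pattern that 5.51% of all genes had. Counts in all 3 groups were found for 4 members (1.86%, against 15.8% of all genes), namely Zfp106, Zfp706, Zfp87 and Zfp292. The remaining 11 had no count in any cell (5.12%, against 7.21% of all genes): Zfp28, Zfp51, Zfp120, Zfp358, Zfp518b, Zfp606, Zfp652, Zfp709, Zfp771, Zfp935 and Zfp952. Without cultured cells B to E, 54 members were in the cultured-only pattern (25.1%, against 21.9% of all genes).

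The comparison of transplanted with cultured cells sets 30 days in a living heart against 30 days in vitro for cells of 1 stem cell line. A gene entered with at least 10 counts over both groups, and a ratio of the group sums of at least 2-fold counted as higher or lower; a group with no count of a gene was given 3 counts, the floor used throughout. Of the 93 members that entered, 86 were lower in transplanted cells (92.5%; all genes 64%) and 5 were higher (5.38%; all genes 22.5%). Of the 86, 77 had no transplanted count. The median log2 ratio was -6.93 for members and -5.63 for all genes, and -5.72 and -4.53 with genes at 0 set to the floor. Most members pass the 10-count filter only through the cultured group, so the share lower is a description of these and not of all 215. Without cultured cells B to E, 27 of 38 members were lower (71.1%, against 49.5% of all genes). In that setting 3 were higher (7.89%, against 23.6% of all genes). Without cultured cell B alone 56 of 64 were lower (87.5%, against 57.7% of all genes). Without transplanted cell G, 2 of 90 were higher (2.22%; all genes 21.8%).

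Adult against cultured cells, a comparison of 2 species counted on mouse genes, gave a like picture. Of 98 members, 83 were lower in adult cells (84.7%; all genes 62.1%) and 6 were higher (6.12%; all genes 23%). Here 65 of the 83 had no adult count. The median log2 ratio was -6.54 for members and -3.85 for all genes (-5.43 and -4.04 with the floor). Without cultured cells B to E, 25 of 45 members were lower (55.6%), near the 47.3% of all genes. In that setting 5 were higher (11.1%, against 23.4% of all genes). Without cultured cell B alone 51 of 69 were lower (73.9%, against 55.9% of all genes). Both comparisons use the same cultured cells, so they are not independent of each other.

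Transplanted against adult cells asks how near the transplanted cells came to mature ones. Of 33 members that entered, 22 were lower in transplanted cells (66.7%; all genes 44.3%) and 10 were higher (30.3%; all genes 34.8%). The share of members higher was thus near that of all genes. The median log2 ratio was -3.99 for members and -0.37 for all genes (-2.70 and -0.37 with the floor). Of the 22 lower members 21 had no transplanted count, and of the 10 higher members 9 had no adult count. How far the rat origin of the adult reads touched their counts on mouse Zfp genes was not tested.

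**Figure D3:**
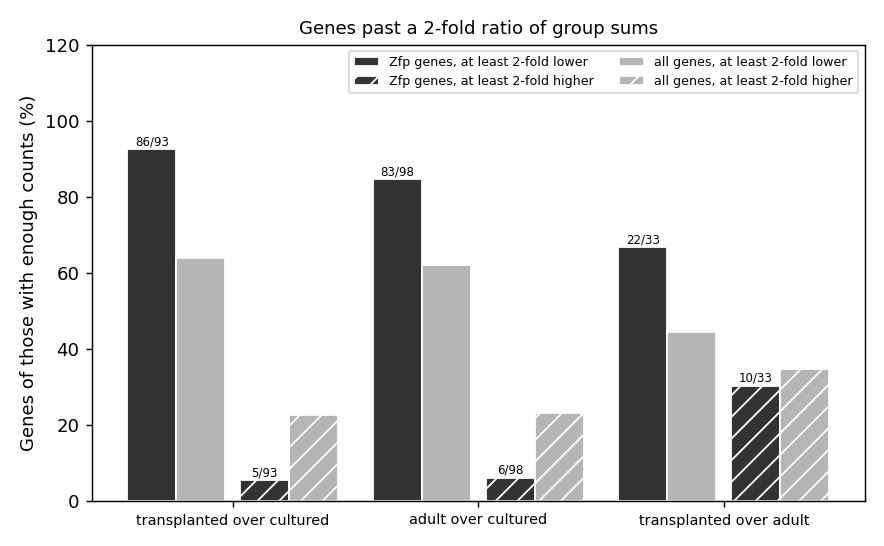
Percent of Zfp genes (dark) and of all genes (light) at least 2-fold lower (plain) or higher (hatched) in each comparison of group sums, among genes with at least 10 counts over both groups; numbers above the dark bars are members past 2-fold of members entered. Members were lower in 86 of 93, 83 of 98 and 22 of 33 cases.

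Members that bind RNA or serve splicing and the ribosome included Zfp106 and Zfp207, each seen in at least 4 cells of a group. Of the 10 listed symbols, 7 were in the table. Counts were found for 1 of the 7 in transplanted (14.3%), 5 in adult (71.4%) and 6 in cultured cells (85.7%). Of all members, 10.7%, 18.6% and 86.5% had counts there. Zfp106, an RNA-binding protein whose loss in mice causes neuromuscular degeneration, was the member seen in the most transplanted cells. It had 21, 1, 128 and 13 counts in transplanted cells B, C, D and G, or 125 CPM over the group (exact Poisson 95% interval 107 to 146 CPM; CPM is the usual count scaled to a common total). Adult cells A, B and G had 21, 3 and 11 counts, or 27.5 CPM (19.2 to 38.3 CPM), and 6 cultured cells held 1 to 27 counts, or 194 CPM (139 to 264 CPM), with none in B and H. The transplanted level was 0.645 times the cultured level (0.454 to 0.936) and 4.55 times the adult one (3.14 to 6.75). Neither ratio was stable to single cells: without transplanted cell D they were 0.157 and 1.11, without cultured cell E the first was 1.83, and without adult cell A the second was 9.36.

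Zfp207, a spindle and splicing protein that binds Bub3, was the most widely seen member of cultured cells. Cultured cells A to H held 21, 85, 6, 8, 29, 8, 0 and 41 counts of it, or 960 CPM (831 to 1104 CPM), and no count in any transplanted or adult cell. It was therefore at least 417-fold lower in transplanted and at least 407-fold lower in adult cells. No single cell moved these bounds by over 1.5 times. Zfp638, an RNA-binding protein that helps silence retroviral DNA, had no transplanted count, 3 adult counts and 59 cultured counts, 56 of them in cell B. Zfp326, a subunit of a complex that couples splicing to elongation, was seen in adult cell E alone of its group with 124 counts, at 97.5 CPM, and in cultured cells A, B and D with 9, 3 and 11 counts, at 112 CPM. Zfp622, a factor in the making of the large ribosomal subunit, had 17 counts in adult cell B and none elsewhere.

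Members known from embryonic stem cells differed among themselves (4 of 6 listed symbols). Counts were found for 2 in transplanted, 1 in adult and 4 in cultured cells, beside 10.7%, 18.6% and 86.5% of all members. Zfp706, which in mouse stem cells promotes exit from self-renewal, was the member seen in the most adult cells. Its counts in adult cells C to H were 66, 31, 33, 4, 49 and 7, with none in A and B, or 149 CPM (129 to 172 CPM). Transplanted cells B, D and G had 27, 3 and 1 counts, or 23.8 CPM (16.2 to 33.8 CPM), and cultured cells A, B, C, E and F had 12, 32, 1, 5 and 4, or 262 CPM (197 to 342 CPM). The transplanted level was 11.0-fold lower than the cultured one (6.95 to 17.7) and 6.28-fold lower than the adult one (4.28 to 9.50). Without transplanted cell B these were 77.2-fold and 44.0-fold, and without cultured cell B the first was 6.36-fold. The adult level was 1.75-fold lower than the cultured one (1.27 to 2.38), and 1.01-fold lower without cultured cell B.

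The other members of this list were mainly in cultured cells. Zfp281, which restrains Nanog in mouse stem cells, had 25 of its 29 counts in cultured cell G and the rest in A, E and F. Zfp462, linked to heterochromatin in stem cells, had 7, 6, 16 and 17 counts in cultured cells B, C, F and G. Neither had a count in transplanted or adult cells. Zfp322a, a self-renewal factor of mouse stem cells, had 21, 55 and 34 counts in cultured cells C, D and E, or 534 CPM (438 to 643 CPM; 308 CPM without D), and 1 and 3 counts in transplanted cells B and G. Its cultured counts were thus all in the cells with much Rpph1. Of these 4 genes, 2 were thus seen in transplanted cells, and Zfp706 alone in adult cells.

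KRAB members that guard imprints and retroelements are next (6 of 7 listed symbols). Of these 6, 1 had counts in transplanted, 2 in adult and 5 in cultured cells, beside 10.7%, 18.6% and 86.5% of all members. Cultured counts were left for 3 of them without cells B to E. Zfp445, which with Zfp57 keeps methylation at imprinted loci, had 6, 61, 7, 13 and 8 counts in cultured cells A, B, C, E and F, or 461 CPM (373 to 563 CPM), and 234 CPM without B. Transplanted cell B had 2 counts and no adult cell had any. Zfp57 had 43 counts, all in cultured cell B. Zfp568, which represses a placental promoter of Igf2, had 88 counts in adult cell D, 4 in cultured cell C and none in transplanted cells. Zfp932, with 37.0% of its windows in other genes, had 23 counts over cultured cells A, B and D, and Zfp961 had 21 in cultured cell A. Zfp809, which silences a class of murine leukaemia virus, had 1 count in adult cell C and none elsewhere.

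Other members with the KRAB pattern were among the most abundant in cultured cells. Zfp266, a KRAB member described as a barrier to reprogramming of mouse fibroblasts, stood at 168 CPM per kb of exon in cultured cells, and Zfp207 at 144 CPM per kb. Zfp266 had 11, 205, 20 and 8 counts in cultured cells A, B, E and G, or 1183 CPM (1040 to 1342 CPM), 310 counts in adult cell G, or 244 CPM (217 to 273 CPM), and none in transplanted cells. It was at least 514-fold lower in transplanted than in cultured cells (at least 116-fold without cultured cell B). The cultured level of Zfp266 was 268 CPM without that cell. Zfp68 had 37, 98, 1 and 3 counts in cultured cells B, D, E and G and none in the other groups. Zfp81 had 126 counts in cultured cell B, Zfp820 had 9 in B and 83 in D, and Zfp871 had 4, 81 and 13 in A, B and C. None of these 3, all on chromosome 17, had a transplanted or adult count. Zfp87 was the KRAB member seen in all groups, with 53 counts in transplanted cell C, 74 and 4 in adult cells A and C, and 41, 1 and 17 in cultured cells B, C and D.

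Activators and partners of chromatin (15 of 16 listed symbols) had counts for 1 member in transplanted, 5 in adult and 13 in cultured cells. These are 6.67%, 33.3% and 86.7% of the list, beside 10.7%, 18.6% and 86.5% of all members. For Zfp451, a SUMO ligase, cultured cells A to F gave 11, 37, 1, 60, 2 and 5 counts, or 563 CPM (465 to 675 CPM; 314 CPM without D), and none in transplanted or adult cells. Zfp644, a partner of the G9a methyltransferase, had 109, 4, 18 and 11 counts in cultured cells B, C, E and G, or 689 CPM (580 to 812 CPM), and 227 CPM without B. Adult cells B and C had 7 and 27 counts of it, or 26.7 CPM (18.5 to 37.4 CPM), and transplanted cells had none. Zfp143, an activator that binds promoters, had 68 counts in adult cell G, 2, 28 and 3 in cultured cells A, B and C, and none in transplanted cells. Zfp91, a ubiquitin ligase, had 25 counts in transplanted cell B and none elsewhere, a bound under 2-fold against cultured cells. Of the 15, 8 had cultured counts without cells B to E (53.3%, against 34.9% of all members).

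The CCCH members and the members linked to heart and mesoderm had no count in any transplanted or adult cell. These are 3 and 4 genes, and of all members only 10.7% and 18.6% had counts there, so nothing is read from this about either list. All 3 listed CCCH genes were seen in cultured cells. Zfp36 (tristetraprolin) had 2 counts in cell A and 50 in cell H, Zfp36l1 had 8, 2 and 16 in A, F and H, and Zfp36l2 had 8 in B. Cell H, which held most of these counts, had the lowest share of counts on Zfp genes of its group and no count of a KRAB-pattern member. Of the heart and mesoderm list, with 4 of 6 symbols in the table, Zfp260, which acts with Gata4 in rat and mouse heart cells, had 75 counts, all in cultured cell B. Zfp521, a regulator of progenitor cells, had 40 and 17 counts in cultured cells B and C. Zfp503 had 3 counts in A and 1 in F, and Zfp423 had 2 in C. Zfp503 was the 1 gene of this list with cultured counts without cells B to E.

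**Figure D4:**
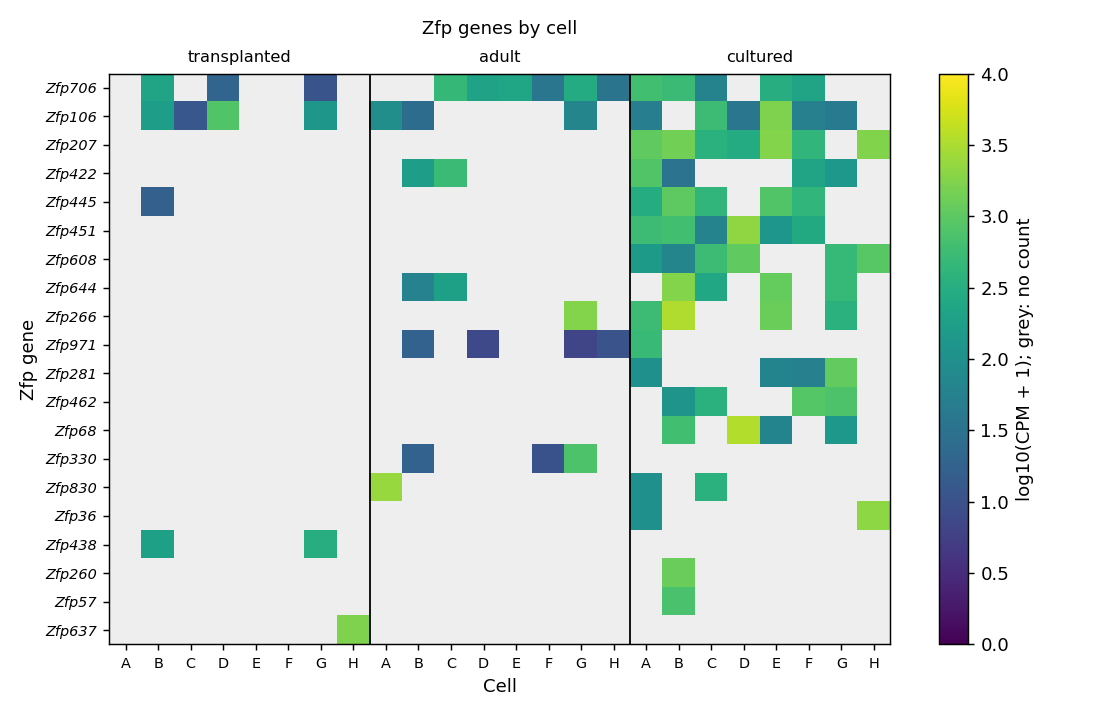
Level of 20 Zfp genes in each of the 24 cells, as log10(CPM + 1) with grey for no count, ordered by the number of cells with counts. Zfp207 fills 7 of 8 cultured cells and no others, Zfp706 fills 6 adult cells, Zfp106 fills 4 transplanted cells, and Zfp637 is seen in transplanted cell H alone.

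The few members that were higher outside the dish were each carried by 1 or 2 cells. The 5 members higher in transplanted than in cultured cells were Zfp637 (572 counts in cell H), Zfp511 (67 in G), Zfp672 (56 in G), Zfp438 (23 in B and 31 in G) and Zfp933 (40 in D). Zfp637 was at least 30.2-fold, Zfp511 at least 3.53-fold, Zfp438 at least 2.85-fold and Zfp933 at least 2.11-fold higher. Zfp672 was 2.22-fold higher, with an interval that includes equal levels (0.819 to 8.41). Without its one cell, no ratio could be given for Zfp637, Zfp511 or Zfp933, and Zfp672 was at least 7.78-fold lower; without cultured cell C it was 4.07-fold higher. Zfp438 kept counts in a cell when either B or G was left out, and its bound was then 1.81-fold without B and 1.31-fold without G.

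The 6 members higher in adult than in cultured cells were Zfp830, Zfp11, Zfp330, Zfp110, Zfp568 and Zfp655. Zfp830, a nuclear protein linked to splicing, had 540 counts in adult cell A, against 2 and 6 in cultured cells A and C, and was 10.9-fold higher (5.52 to 25.5). Zfp655 had 303 counts in the same adult cell, against 4, 7 and 12 in cultured cells A, C and E, and was 2.14-fold higher (1.40 to 3.42). Zfp11 had 198 counts in adult cell B, against 5 in cultured cell C, and was 6.42-fold higher (2.71 to 19.99). For these 3 and for Zfp568, leaving out the one adult cell turned the direction: Zfp830 was then at least 13.6-fold, Zfp655 at least 39.0-fold, Zfp11 at least 9.32-fold and Zfp568 at least 7.23-fold lower. Leaving out 1 cultured cell moved them the other way, to 40.3-fold higher for Zfp830 without C, 4.12-fold for Zfp655 without E, at least 9.84-fold for Zfp11 without C and at least 4.37-fold for Zfp568 without C (3.57-fold with all cells). Zfp330 had 2, 1 and 132 counts in adult cells B, F and G and none elsewhere, and was at least 7.30-fold higher, with no ratio without G. Zfp110 rested on adult cells C and H, with 29 and 31 counts against 2 in cultured cell C, and was 4.86-fold higher (1.29 to 41.1), or 2.83-fold without C, 2.82-fold without H and at least 2.98-fold without cultured cell C.

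Fewer members with the KRAB pattern than without it had counts in transplanted and adult cells. In transplanted cells 5 of 107 with the pattern had a count (4.67%), against 18 of 107 without it (16.8%). In adult cells these were 14 (13.1%) and 26 (24.3%). In cultured cells the order was the reverse, with 96 (89.7%) and 89 (83.2%), but without cells B to E it was 32 (29.9%) and 43 (40.2%), and without cell B alone 73 and 74. The order was kept in each group among members with at most 10% shared windows: 4 of 78 with the pattern and 18 of 104 without it in transplanted cells, 12 and 26 in adult cells, and 69 and 87 in cultured cells, or 88.5% and 83.7%; in cultured cells without B to E these were 23 and 42, or 29.5% and 40.4%. In counts, members with the pattern held 127 of the 1154 Zfp counts in transplanted cells, 743 of 2667 in adult cells and 2106 of 4225 in cultured cells.

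Among members with at least 10 cultured counts, 2 of 43 with the pattern were also seen in transplanted cells and 7 of 43 without it. For adult cells these were 7 and 14. In the set without cultured cells B to E they were 0 of 10 and 4 of 17 for transplanted cells, and 4 of 10 (40%) and 6 of 17 (35.3%) for adult cells, so the adult order turned. Of all 3646 genes with as many cultured counts, 36.8% were also seen in transplanted and 41.5% in adult cells, against 10.5% and 24.4% of the 86 members. Without cultured cells B to E, 4 of 27 members (14.8%; all genes 45.5%) were also in transplanted cells and 10 of 27 (37.0%; all genes 50.4%) in adult cells. Detection was also counted by the number of fingers. Members with 10 or more fingers had counts in 8.20% of cases in transplanted, 13.9% in adult and 91.8% in cultured cells, those with 5 to 9 fingers in 12.3%, 22.8% and 78.9%, and those with 1 to 4 fingers in 21.4%, 32.1% and 82.1%. The 7 members with no finger found had 0 transplanted, 1 adult and 5 cultured detections. In cultured cells without B to E the percents were 27.9%, 43.9% and 42.9% for 10 or more, 5 to 9 and 1 to 4 fingers, so the order in cultured cells turned. On chromosome 17, none of the 26 members had a transplanted count, 2 had an adult count and 23 had a cultured count, or 10 without cultured cells B to E. Of all members, 10.7%, 18.6% and 86.5% had counts there, or 34.9% in cultured cells without B to E. Members on chromosomes 1, 3, 5, 10, 14, 16 and X had no transplanted count either.

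**Figure D5:**
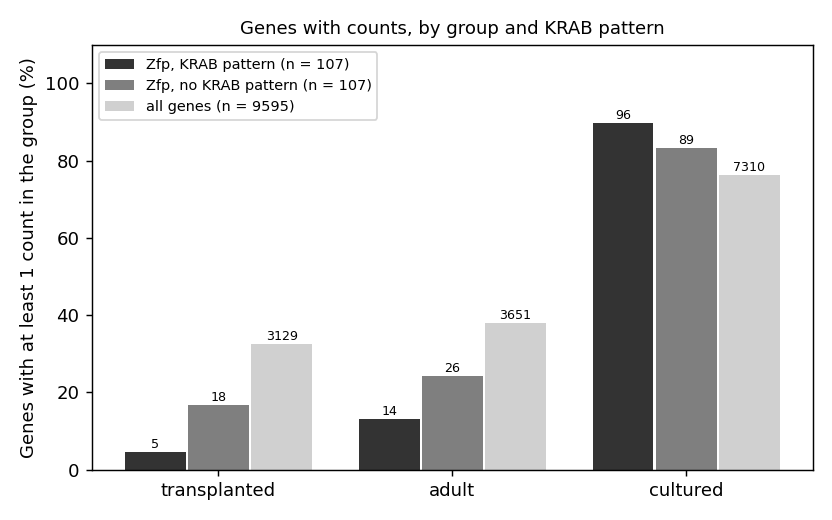
Percent of genes with at least 1 count in a group, for Zfp genes with the KRAB pattern, Zfp genes without it and all listed genes; numbers above the bars are genes with counts. Both sets of Zfp genes lie below all genes in transplanted and adult cells and above them in the 8 cultured cells; without cultured cells B to E the cultured percents are 29.9%, 40.2% and 45.1%.

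The genes that work with these proteins, and other families of nuclear regulators, were counted in the same way. Of all listed genes, 32.6%, 38.1% and 76.2% had counts in transplanted, adult and cultured cells, and 64% and 62.1% of those that entered were lower in transplanted and in adult than in cultured cells, so an order of groups like that of the members is also that of all genes. Of 18 listed partners of KRAB silencing, among them Trim28 and Setdb1, 5 had counts in transplanted, 6 in adult and 15 in cultured cells. Of those that entered, 10 of 12 were lower and 1 higher in transplanted than in cultured cells, and 10 of 10 were lower in adult than in cultured cells. Of 20 listed partners of mRNA decay, 7 had counts in transplanted, 7 in adult and 17 in cultured cells, with 12 of 12 lower in transplanted and 10 of 13 lower in adult than in cultured cells. Of 20 Zbtb genes, another zinc finger family, 2, 3 and 17 had counts in transplanted, adult and cultured cells. Among 12 Klf and Sp genes these were 1, 4 and 10, among 9 Zscan and Zkscan genes 2, 3 and 7, and among 12 Zc3h genes 3, 4 and 10. Of 53 chromatin remodelers, 11, 20 and 46 had counts, and 34 of the 35 that entered were lower in transplanted than in cultured cells. Without cultured cells B to E, the cultured detections were 8 of 18 KRAB partners, 10 of 20 mRNA decay partners, 10 Zbtb, 8 Klf and Sp, 3 Zscan and Zkscan and 3 Zc3h genes and 28 chromatin remodelers, against 45.1% of all genes.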

How the data were processed

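The deposited table holds whole-number counts per gene and cell, used as the authors deposited them. Single cells were sorted or picked by hand, and their cDNA was amplified by PCR and cut with Tn5, per the labels' protocols. Per the submitters' processing notes, TopHat2 version 2.1.0, HTSeq and DESeq2 were used with mm10, a mouse build, for mouse and rat cells alike. The roles of these tools, the annotation, whether counting used strand, and why these 9595 genes are listed were not given in the sources used here. Across the 24 cells, 692 genes had no count. Reads of close copies, and of overlapping or antisense genes, may stand on either gene. Totals are sums over the listed genes and may lie below the full depth.

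Counts were summed over the 8 cells of a group, by sample title. Intervals are exact and at 95%: Clopper-Pearson for shares, Poisson for CPM and conditional binomial for ratios. The floor of 3 counts over a group is 2.30 CPM in transplanted, 2.36 CPM in adult and 14.6 CPM in cultured cells, and no ratio is given with both groups at or under it. Median log2 ratios use a pseudocount of 1 CPM. Cells were thinned without replacement 100 times. GENCODE M21 gave positions, exon lengths and transcripts: of the 9595 symbols 9343 matched directly, 181 by an older name and 71 did not match. A finger is a cysteine, 2 to 4 residues, a cysteine, 12 residues, a histidine, 3 to 5 residues and a histidine in a translated transcript. Counting was tested on simulated data. No pair of cells within a group agreed within sampling noise (lowest chi-square per degree of freedom 12.3), so no library was counted as deposited again. Doublets were not searched for among single picked or sorted cells. Software was Python 3.11.15, numpy 2.4.6, scipy 1.17.1, pandas 2.3.3 and R 4.3.3 with edgeR 4.0.16.

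The members, the gene lists and the settings were chosen with earlier results of these data known. Named members are the 10 with the highest CPM in each group, those with counts in at least 4 cells of a group, members of the role lists with at least 10 counts, and per comparison the 8 highest and 8 lowest ratios, given 10 counts or more over both groups and at least 2 cells with counts in the higher group, which gave 50. Zfp36l2, Zfp423, Zfp619, Zfp503 and Zfp809, and the genes with no count, were named after their values were seen. Alternatives were other scalings, filters, weights and denominators and leaving out each cell. Leaving out cells B to E, members with few shared windows and genes at the floor were added after seeing the data.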

Additional observations from a re-analysis of the deposited data

Results flagged for a closer look

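Among 24 sets of 8 cells checked, 7 had a cell far from the other cells of its group by Dixon's criterion. For normally distributed values chance meets this criterion in about 1 in 20 sets. The CPM of single members holds many zeros, so that rate does not apply to it and the 7 are not read as an excess. Transplanted cell D had 818 CPM of Zfp106, and cultured cell E had 1677 CPM of it. Cultured cell B had 3372 CPM of Zfp266, cultured cell G 1103 CPM of Zfp281 and cultured cell A 808 CPM of Zfp422. Cultured cell D stood apart for 2 members, with 2152 CPM of Zfp451 and 3514 CPM of Zfp68. No cell stood apart by this criterion in its Zfp share of counts or its number of members detected.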

How the results depend on the processing

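The order of the groups in the share of counts and in detection, and the sign of each median and share ratio, were the same in all settings run. Counting depth limits the cultured group, where 1 count is worth more CPM, and no cultured cell reached 100154 counts. The cause of each shift below was not tested. No paired analysis was possible because cell letters only name cells and no test was made.

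The share of counts was 0.0444% of transplanted, 0.0980% of adult and 1.09% of cultured counts per kb of exon length, 0.0823%, 0.194% and 1.77% with equal cell weights, and 0.0447%, 0.167% and 1.93% without the member with the most counts. With C2H2 members only it was 0.199% in adult and 1.95% in cultured cells. In cultured cells it was 2.27% without Rn45s and Rpph1, 2.39% of protein-coding counts, 1.92% with members of few shared windows and 1.11% without cells B to E. Without 1 cell it ran from 0.0607 to 0.104% in transplanted, 0.161 to 0.246% in adult and 1.54 to 2.23% in cultured cells.

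The log2 ratio of shares for transplanted over cultured cells was -4.66 without Rn45s and Rpph1, -4.72 of protein-coding counts, -4.43 with equal weights, -5.43 without the leading member and -3.64 without cells B to E. For adult over cultured cells, in the same order, it was -3.42, -3.48, -3.19, -3.75 and -2.40, and -3.47 per kb and -3.21 with few shared windows. For transplanted over adult cells it was -1.14 per kb and -1.90 without the leading member. Without 1 cell the ranges were -5.08 to -4.12, -3.67 to -2.88 and -1.79 to -0.86.

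The median number of members per cell was 2.5 in transplanted and 6.5 in adult cells as deposited, 2.31 in transplanted cells at 100154 counts, and 1.36 in adult and 17.1 in cultured cells with at least 5 counts. As a percent of genes detected, the median was 0.358% in adult cells with at least 5 counts and 1.53% in cultured cells without B to E.

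For transplanted over cultured cells the members' median log2 ratio was -6.33 with TMM, -6.28 with size factors, -6.05 and -5.31 with at least 5 and 1 counts, -3.71 with a pseudocount of 10 CPM and -5.72 with zeros at the floor. For adult over cultured cells, in the same order, it was -5.94, -5.92, -5.63, -4.91, -3.51 and -5.43, and -2.24 without cells B to E. For transplanted over adult cells it was -3.38, -4.79 and -1.75 with at least 5, 20 and 1 counts, -1.57 with a pseudocount of 10 CPM, -2.70 with the floor and -4.79 to -3.91 without 1 cell. Before the pseudocount, TMM moves a log2 ratio by 0.92 against cultured cells and by under 0.01 between transplanted and adult cells, and size factors by 0.22 for transplanted and 0.14 for adult over cultured cells; with it, medians that rest on genes at 0 in a group move otherwise, to -4.29 with TMM and -3.51 with size factors for transplanted over adult cells.

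With at least 1 count, 184 of 195 members were lower in transplanted than in cultured cells. Without cells B to E these were 27 of 38, and without 1 cell 56 to 87. Those lower in adult cells numbered, in the same order, 174 of 195, 25 of 45 and 51 to 85. A member with 1 cultured count and none in the other group is called lower through the floor and the depth alone. The 184 and 174 are therefore not read as a result. Members higher in transplanted than in cultured cells numbered 1 past 4-fold, 3 without cells B to E and 2 to 5 without 1 cell.

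For 121 ratios of named members, 423 values under other settings were computed: 283 lay within 1.5-fold of the first value and 9 changed sign where the ratio was past 2-fold. The other 131 include ratios under 2-fold that changed sign. With equal weights Zfp512b (transplanted over cultured) was 0.40 and Zfp655 (adult over cultured) -0.016 on the log2 scale. Without 1 cell the log2 ratio over cultured cells ran from -4.63 to 0.38 for Zfp512b and -2.96 to 2.03 for Zfp672 in transplanted cells, and from -3.22 to 3.30 for Zfp11, -5.87 to 0.64 for Zfp143, -2.85 to 2.13 for Zfp568, -5.28 to 2.04 for Zfp655 and -3.76 to 5.33 for Zfp830 in adult cells.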
